A study of Mus musculus with 2 samples.

Results

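Red cell barcodes were defined as barcodes that the authors' table of cell classes leaves without a class and in which genes whose symbols start with Hba- or Hbb-, the haemoglobin chains, make up over 50% of the UMIs (unique molecular identifiers, each standing for 1 captured RNA molecule). They numbered 516 of 7673 barcodes, 487 of 3458 in the diabetic library and 29 of 4215 in the control library. The tissue was the aorta of male Apoe-/- C57BL/6 mice, which lack apolipoprotein E and are used as a model of atherosclerosis. Diabetic mice were given streptozotocin, a toxin of insulin-producing beta cells, at 55 mg per kg and day on 5 days from 6 weeks of age, control mice the citrate vehicle, and all were 17 weeks old at collection. Each group is 1 library of 10x 3′ v2 chemistry made from 4 pooled mice, so no difference between the groups has a replicate check, and no test between them was possible. Cells were released by enzyme digestion, filtered, pooled, incubated at 37 °C and sorted as 7AAD-negative and calcein-positive, steps that can set the share of any cell type in the libraries. The labels' protocols name neither perfusion nor red cell lysis, so red cells of blood and of tissue cannot be told apart here.

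Red cells arise from nucleated erythroid precursors that divide, fill with haemoglobin, condense and expel the nucleus, and enter the blood as reticulocytes. A reticulocyte makes no new RNA: it translates what it inherited while it destroys its mitochondria, ribosomes and internal membranes, and the RNA is lost as it becomes a mature red cell. Early precursors are marked by Kit, the stem cell factor receptor, and Tfrc, the transferrin receptor, dividing ones by cell cycle genes such as Mki67, and late ones by Alas2, the erythroid first enzyme of haem synthesis, and by Bpgm, which makes the 2,3-bisphosphoglycerate that lowers the oxygen affinity of haemoglobin.

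The 250 bases before the RefSeq start of Alas2 and of 3 adult globin genes are shown. The 3 globin genes supply most of the UMIs of the barcodes, and Alas2 is the most abundant of their other genes. The windows were searched for letters known from erythroid control: GATAA, the core bound by Gata1, and CCNCNCCC, a CACCC-box form bound by Klf1. Capitals mark matches to either motif on either strand, and each sequence is written 5′ to 3′ on its gene's strand (RefSeq, GRCm38.p6).
Alas2: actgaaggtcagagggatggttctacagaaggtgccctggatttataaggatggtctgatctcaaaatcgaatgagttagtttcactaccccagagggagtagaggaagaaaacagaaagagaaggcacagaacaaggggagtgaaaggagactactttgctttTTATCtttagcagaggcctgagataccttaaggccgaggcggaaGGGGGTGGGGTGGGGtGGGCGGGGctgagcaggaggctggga
Hba-a1: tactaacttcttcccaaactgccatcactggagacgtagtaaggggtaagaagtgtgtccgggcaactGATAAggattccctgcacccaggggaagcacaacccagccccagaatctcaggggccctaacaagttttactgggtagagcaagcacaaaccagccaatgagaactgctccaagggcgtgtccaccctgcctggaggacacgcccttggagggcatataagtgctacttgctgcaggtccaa
Hbb-bs: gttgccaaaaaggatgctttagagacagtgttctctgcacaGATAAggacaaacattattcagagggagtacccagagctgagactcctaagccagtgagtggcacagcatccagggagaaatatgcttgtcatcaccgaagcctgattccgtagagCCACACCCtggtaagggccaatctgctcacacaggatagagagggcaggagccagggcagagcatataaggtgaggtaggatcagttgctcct
Hbb-bt: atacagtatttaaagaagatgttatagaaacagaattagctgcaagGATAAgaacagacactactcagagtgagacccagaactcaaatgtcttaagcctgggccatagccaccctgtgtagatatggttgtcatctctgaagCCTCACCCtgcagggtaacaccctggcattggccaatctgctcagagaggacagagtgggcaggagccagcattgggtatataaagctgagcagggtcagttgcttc
The windows lie at chrX:150547167-150547416 on the plus strand, chr11:32283422-32283671 on the plus strand, chr7:103827929-103828178 on the minus strand and chr7:103813924-103814173 on the minus strand. GATAA begins 86 bases before the start in Alas2, read on the other strand, 182 before in Hba-a1, 209 before in Hbb-bs and 204 before in Hbb-bt. CCNCNCCC begins 93 bases before the start in Hbb-bs and 107 before in Hbb-bt, and Alas2 has 4 matches on the other strand, at 42, 40 and 35 bases before, which overlap, and at 26 bases before. Hba-a1 has none. Of abundant genes searched alike and not shown, Hba-a2 held GATAA. Bpgm, Gpx1, Ubb and Ube2l6 held no GATAA, and Gpx1 held neither motif. Of 32851 windows of this length, 22.6% held GATAA, 45.9% held CCNCNCCC and 6.89% held both, so a match is a description of the letters and not of a bound site. The longer GENCODE models place the gene starts inside these windows, at 150547375 for Alas2, 32283511 for Hba-a1, 103828096 for Hbb-bs and 103813996 for Hbb-bt. Of the other genes described most, Bpgm lies on chromosome 6 at 34476207 to 34505613, Car2 on chromosome 3 at 14886273 to 14900770 and Slc4a1 on chromosome 11 at 102348824 to 102366203 (GRCm38).

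The barcodes were chosen by their haemoglobin share, so its values are given as a description. Haemoglobin genes exceeded 95% of the UMIs in 459 of 487 diabetic and 25 of 29 control red cell barcodes, and no barcode without a class lay between 50% and 70%. The lowest shares inside the limit were 74.7%, 77.8% and 80.7% in the diabetic library and 77.1%, 89.3% and 94.6% in the control library. The highest shares among barcodes without a class outside it were 45.7%, 45.4% and 40.2% in the diabetic library, against 4.72%, 3.47% and 3.23% in the control library. Annotated cells reached into the same range, with 14 diabetic cells over 50% (up to 77.3%) and 3 control cells (up to 83.5%). Red cell barcodes made up 14.1% of diabetic barcodes (exact 95% interval 12.9 to 15.3), against 0.688% of control barcodes (0.461 to 0.987). As intervals here come from counts in 1 library, all of them cover counting error only. The gap between the 2 shares is far wider than these intervals, but pooling, digestion, sorting and blood left in the vessel were each done or set once per group, and their part in it was not tested. In bulk of UMIs, these barcodes held 20.1% of all UMIs of the diabetic library and 96.1% of its haemoglobin UMIs, but 0.751% of its other UMIs. In the control library they held 1.37%, 83.4% and 0.0597%. The libraries share 15 barcode sequences, and none is a red cell barcode in both.

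A red cell barcode had a median of 7542 UMIs in the diabetic library (range 1395 to 12823), against 6731 in the control library (922 to 14368). Only a small remainder was not haemoglobin: a median of 208 UMIs (25 to 793) and 92 genes in the diabetic library, and of 156 UMIs (35 to 1698) and 92 genes in the control library. Annotated cells, those with a class, had medians of 4455 and 3754.5 non-globin UMIs in the diabetic and control libraries. Everything below on genes other than haemoglobin rests on 105668 non-globin UMIs over all diabetic and 8999 over all control red cell barcodes, and levels are given in counts-per-million units (CPM), with the non-globin UMIs as the total. Thinned to 100 non-globin UMIs, a diabetic red cell barcode held a median of 53 genes and a control one 64, against 86 in the annotated cells of each library, so the RNA was concentrated in few genes.

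**Figure D1:**
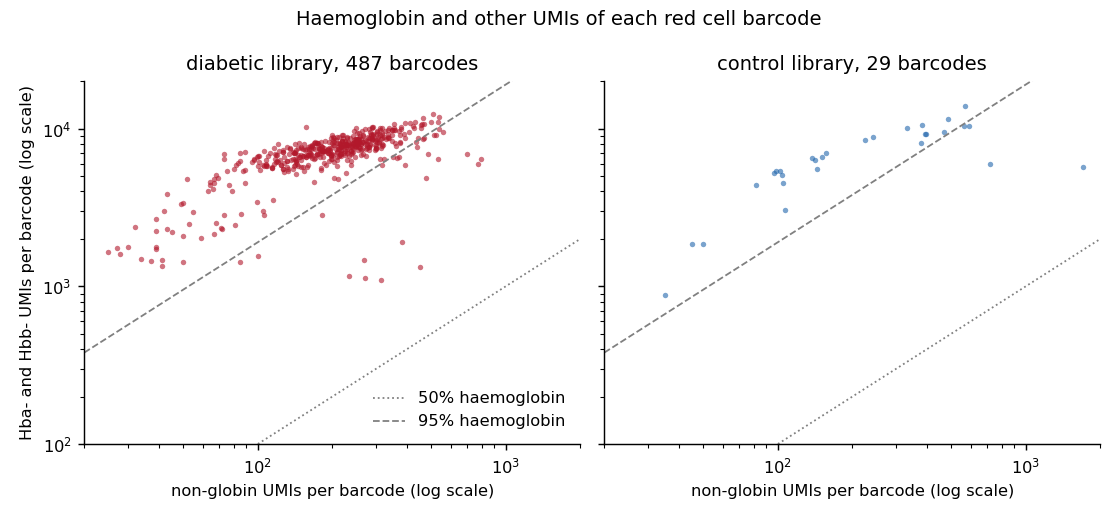
Haemoglobin UMIs (Hba- and Hbb- genes, y axis) against non-globin UMIs (x axis) of each red cell barcode, both on log scales, for 487 diabetic and 29 control barcodes. Haemoglobin outnumbers all other UMIs in every barcode, and 1 control barcode stands at 1698 non-globin UMIs, far right of the rest.

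The globin was that of adult red cells. Hbb-bs, the major adult beta chain of this strain, took 45.0% of haemoglobin UMIs in diabetic and 44.1% in control red cell barcodes. Hba-a1 and Hba-a2, the paired alpha chain genes, took 25.5% and 19.5% in diabetic and 26.2% and 19.7% in control barcodes. Hbb-bt, the other adult beta gene, took 9.96% in diabetic and 9.98% in control barcodes. All 4 were present in every barcode, whereas Hbb-y, an embryonic beta chain, had 1 UMI in the diabetic library and 0 in the control library. The proportions of the chains differed little in size between the libraries, though the counting intervals of Hbb-bs and of Hba-a1 do not overlap. Alpha over beta UMIs was 0.818 in diabetic and 0.850 in control barcodes, and Hbb-bs over Hbb-bt was 4.52 and 4.41, with medians per barcode of 4.49 and 5.08. Single barcodes spread around the alpha over beta ratio, with a median of 0.821 (range 0.382 to 2.71) in the diabetic and 0.830 (0.676 to 1.83) in the control library. The split between Hba-a1 and Hba-a2 is uncertain, because their coding sequences of 429 bases differ at 1 base and the 74-base 3′ UTR of Hba-a1 is identical to the start of that of Hba-a2. Hbb-bs and Hbb-bt also differ at only 1 of 444 coding bases, but their 3′ UTRs, which this 3′ chemistry reads, are of different sequence.

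The label was checked against erythroid markers, a few of which were abundant. Of 24 erythroid markers, 3 or more were present in 442 of 487 diabetic and 24 of 29 control red cell barcodes, and both Alas2 and Bpgm in 451 and 24. The markers together made up 201092 CPM in diabetic and 136237 CPM in control red cell barcodes, against 156 and 85.9 CPM in the annotated cells of the same libraries. Alas2 (101705 CPM) and Bpgm (52021 CPM) gave most of the diabetic sum. The median barcode of either library held 4 of the 24 markers, and several others had few UMIs or none, as given below. Alas2 was missing from 7 diabetic barcodes, which had 25 to 72 non-globin UMIs, and from 1 control barcode with 35, and of these 6 and 1 had no erythroid marker at all. Markers of other cells were low but not at 0. They made up over 2% of non-globin UMIs in 55 of 487 diabetic and 8 of 29 control red cell barcodes. Smooth muscle markers summed to 4050 CPM in diabetic and 2778 CPM in control red cell barcodes, against 33354 and 16168 CPM in annotated cells. Fibroblast markers summed to 2063 and 4556 CPM, against 13828 and 26197 CPM, and macrophage markers to 2186 and 3334 CPM, against 6550 and 17538 CPM. Platelet markers had 2 UMIs in the diabetic and 0 in the control red cell barcodes, neutrophil markers 4 and 2, endothelial markers 12 and 0, T cell markers 9 and 1, and B cell markers 11 and 1. Free RNA of other cells in the droplets gives UMIs of this kind, and its part was not tested.

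Next to haemoglobin, a handful of genes carried the remaining RNA. The 10 most abundant non-globin genes took 42.3% of non-globin UMIs in diabetic and 29.4% in control red cell barcodes, the 20 most abundant 53.6% and 40.2%, and 15 of these 20 were shared between the libraries. For each library a gene was called higher or lower than in annotated cells past 2-fold in either direction where both sets together had at least 30 UMIs. In the diabetic library 449 of 11435 genes compared were higher (3.93%) and 3107 lower (27.2%). Many of these calls rest on almost nothing, since 153 of the 449 had under 3 UMIs in red cell barcodes. Where at least 10 UMIs were expected in the smaller set, 64 of 1455 genes were higher (4.4%) and 1259 lower (86.5%), with a median log2 ratio of -2.29. In the control library the first rule called 810 of 11529 genes higher (7.03%) and 315 lower (2.73%), and the second 4 of 149 higher (2.68%) and 113 lower (75.8%). The median log2 ratio of all genes compared in the diabetic library was 0.43 as given, 1.78 under edgeR's trimmed mean scaling and -4.62 when scaled to all UMIs with haemoglobin included. Of the 11435 genes 6805 had no UMI in red cell barcodes and were set to 3 UMIs, so these medians rest largely on that floor. All these levels are shares of a total, so a large share in few genes lowers the share of the rest.

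Haem synthesis was led by a single gene. Alas2 had 101705 CPM in diabetic red cell barcodes, the highest of any non-globin gene, against 43.9 CPM in annotated cells, a ratio of 2319 (95% interval 2122 to 2539). Of the 513 Alas2 UMIs of annotated cells 322 came from the 14 cells with over 50% haemoglobin, and without these cells the ratio was 6199. A barcode held a median of 23 Alas2 UMIs (0 to 51) in the diabetic and of 18 (0 to 40) in the control library, where the level was 56673 CPM, and 480 of 487 and 28 of 29 barcodes had at least 1. Fech, which inserts iron into the ring as the last step, had 2385 CPM against 33.3 CPM in annotated cells (ratio 71.5, 60.8 to 84.0). Urod, a middle enzyme of the pathway, had 492 CPM (ratio 11.7). Other enzymes had few UMIs: Ppox had 4, Alad 1 and Cpox 1 over all 487 diabetic barcodes. Only 2 of the 16 genes of this list had 10 UMIs expected in the smaller set, so for most of them a low count does not show loss. Of 16 genes of this list compared in the diabetic library 5 were higher and 2 lower, beside 3.93% and 27.2% of all genes. With 10 UMIs expected 1 of 2 was higher and 1 lower. Alas2 was also read per 1000 haemoglobin UMIs, where it stood at 3.12 (3.06 to 3.18) in diabetic and 2.54 (2.32 to 2.77) in control red cell barcodes. In annotated cells with at most 50% haemoglobin the same quantity was 3.85 (3.32 to 4.44) in the diabetic and 2.98 (1.36 to 5.65) in the control library. The diabetic interval lies above that of red cell barcodes, and the control value rests on 9 Alas2 UMIs. Alpha over beta UMIs in these cells was 0.641 in the diabetic and 0.525 in the control library. The source of this RNA was not tested.

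Iron handling was carried by storage and delivery genes and not by uptake. Ftl1 and Fth1, the ferritin light and heavy chains, had 35101 and 14886 CPM in diabetic red cell barcodes, against 4615 and 11553 CPM in annotated cells, ratios of 7.61 and 1.29. A single barcode gave 14.8% of the 1573 diabetic Fth1 UMIs. Ncoa4, the receptor that takes ferritin to the lysosome, had 3842 CPM (ratio 85.6). Slc25a37, the mitochondrial iron importer mitoferrin, had 1278 CPM (ratio 176) and Isca1, an iron-sulphur cluster assembly protein, 2546 CPM (ratio 152). Tfrc, which takes up transferrin-bound iron in precursors, had 1 UMI in all diabetic and 0 in all control red cell barcodes. Over the iron list 5 of 17 genes compared were higher and 2 lower in the diabetic library, beside 3.93% and 27.2% of all genes. With 10 UMIs expected 1 of 4 was higher and 2 lower. In the list of haem export and breakdown 3 of 8 were higher and 2 lower: Blvrb, a biliverdin and flavin reductase abundant in red cells, had 2385 CPM (ratio 20.8), Slc48a1, a haem transporter, 1353 CPM (ratio 9.47), and Hmox1, haem oxygenase 1, 6 UMIs.

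The next group were genes of the oxygen carrier itself and of its protection. Bpgm had 52021 CPM in diabetic red cell barcodes, against 51.3 CPM in annotated cells (ratio 1014, 932 to 1105), with a median of 11 UMIs per diabetic barcode (0 to 35) and of 7 per control barcode (0 to 31). Hbq1a, a theta globin gene, had 116 UMIs in 101 diabetic barcodes and none in annotated cells, at least 4281-fold higher against a floor of 3 UMIs. Car2, a carbonic anhydrase that hydrates carbon dioxide, had 3530 CPM (ratio 2753, 1648 to 4969), but from 109 of 487 barcodes. Gpx1, a glutathione peroxidase that removes hydrogen peroxide, had 35015 CPM (ratio 38.2), Prdx2, a peroxiredoxin abundant in red cells, 7779 CPM (ratio 28.8), and Cat, catalase, 2943 CPM (ratio 61.9). Prdx1, another peroxiredoxin, was lower at 256 CPM against 861 CPM (ratio 0.297). In the antioxidant list 7 of 19 genes were higher and 8 lower, beside 3.93% and 27.2% of all genes. With 10 UMIs expected 3 of 10 were higher and 6 lower, beside 4.4% and 86.5% of all genes. Of 20 genes of glycolysis and the pentose phosphate pathway, on which mature red cells live, 1 was higher, which is Bpgm, and 11 lower, among them Aldoa, an aldolase, at 151 CPM against 597 CPM (ratio 0.253). With 10 UMIs expected 10 of 11 were lower, near the 86.5% of all genes, and under the trimmed mean 7 of 20 were lower. Gapdh and Pkm, a middle and the last enzyme of glycolysis, had 12 and 9 UMIs over all diabetic red cell barcodes.

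Protein and organelle disposal filled much of the rest. Ubb, a polyubiquitin gene, was second in abundance at 52381 CPM in diabetic red cell barcodes, against 3734 CPM in annotated cells (ratio 14.0, 13.6 to 14.4). Ube2l6, an E2 enzyme that conjugates ubiquitin and Isg15, had 34069 CPM (ratio 751, 685 to 824), Ube2b, another E2, 4145 CPM (ratio 16.0), and Mkrn1, an E3 ligase, 6095 CPM (ratio 246). In the ubiquitin and proteasome list 17 of 28 genes were higher and 4 lower, beside 3.93% and 27.2% of all genes. Scaled to all UMIs, however, 4 were higher and 23 lower. The list summed to 104592 CPM against 7074 CPM. Bnip3l (also Nix), the receptor by which reticulocytes clear mitochondria, had 18123 CPM (ratio 118, 110 to 125). Gabarapl2 and Map1lc3b, Atg8 proteins of the autophagosome membrane, had 12501 and 8082 CPM (ratios 56.5 and 14.0). In the organelle clearance and autophagy list 5 of 20 genes were higher and 5 lower, the latter near the 27.2% of all genes. Its sum was 41782 CPM against 2828 CPM. Where 10 UMIs were expected, the ubiquitin list had 3 of 7 genes higher and 3 lower, and the organelle list 4 of 8 higher and 3 lower. Of all genes 4.4% were higher and 86.5% lower under that rule.

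Further genes high in these barcodes belong to the late erythroid programme or have other roles. Sec61g, a subunit of the endoplasmic reticulum translocon, had 30454 CPM in diabetic red cell barcodes, against 724 CPM in annotated cells (ratio 42.1), and Oaz1, an inhibitor of polyamine synthesis, 25287 CPM (ratio 16.1). Cd24a, a surface antigen found on mouse red cells, had 14508 CPM (ratio 139), H3f3a, histone H3.3, 10050 CPM (ratio 9.26), and Isg20, an RNA exonuclease, 8186 CPM (ratio 499, 426 to 586). Ccndbp1, a cyclin D-binding protein, had 6729 CPM (ratio 178) and Ucp2, an inner mitochondrial membrane carrier, 6710 CPM (ratio 46.6). Over the late erythroid and reticulocyte list 25 of 31 genes were higher and 1 lower, with a median log2 ratio of 5.61 against 0.43 over all genes compared, and scaled to all UMIs 13 were higher and 13 lower with a median of 0.55. The 0.43 rests largely on genes with no UMI in red cell barcodes, set to 3 UMIs. With 10 UMIs expected, 6 of 7 were higher and 1 lower, with a median of 9.55 against -2.29 over all genes. That list summed to 278429 CPM in diabetic and 175242 CPM in control red cell barcodes, against 1138 and 965 CPM in annotated cells. It was chosen with earlier results of these data known and holds abundant genes such as Alas2, Bpgm and Ube2l6. Alas2 and Bpgm are also among the erythroid markers, so these values are a description and no separate support for the stage.

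**Figure D2:**
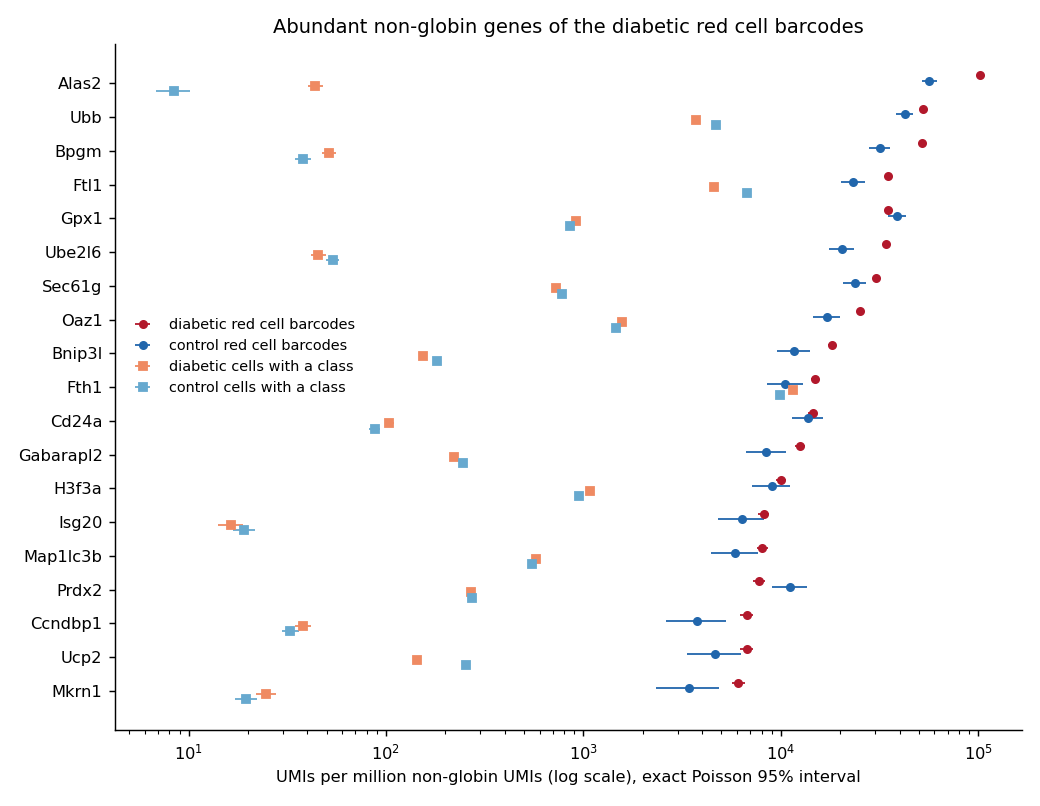
Levels of 19 abundant non-globin genes of the diabetic red cell barcodes, in CPM of non-globin UMIs on a log scale with exact Poisson 95% intervals, for diabetic and control red cell barcodes and for the annotated cells of each library. Alas2, Bpgm and Ube2l6 stand furthest from annotated cells, and Fth1, at 14886 CPM against 11553 CPM, stands closest.

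Membrane genes were few and uneven. Slc4a1, the band 3 anion exchanger, had 57 UMIs, Epb42, a band 3-binding protein, 12, Rhd 4, and Sptb and Ank1, beta-spectrin and ankyrin, 2 each over all diabetic barcodes. Epb41, protein 4.1, had 1940 CPM (ratio 96.2) and Mpp1, its membrane partner p55, 2158 CPM (ratio 60.7). Aqp1, the water channel of red cells and endothelium, had 37.9 CPM in diabetic red cell barcodes, against 162 CPM in annotated cells. Over the membrane list 5 of 15 genes compared were higher and 2 lower, beside 3.93% and 27.2% of all genes. With 10 UMIs expected 1 of 3 was higher and 1 lower. Tspo2, an erythroid translocator protein, had 738 CPM (ratio 785), and Trim10, an erythroid RING-finger protein, 568 CPM.

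Stage was read from genes of earlier and later erythroid steps after each barcode was thinned to 100 non-globin UMIs, which left 427 diabetic and 23 control red cell barcodes and dropped 60 and 6. Late genes were near universal. Alas2 had a UMI in 99.8% of diabetic (exact 95% interval 98.7 to 100) and 100% of control red cell barcodes (85.2 to 100), and Bpgm in 96.3% (94.0 to 97.8) and 87.0% (66.4 to 97.2). Gpx1 followed at 75.9% and 73.9%, against 7.77% and 6.76% of annotated cells, and Car2 at 14.3% (11.1 to 18.0) and 39.1% (19.7 to 61.5). Annotated cells thinned alike had Alas2 in 0.475% (diabetic) and 0.098% (control). Early genes were near absent. Kit, Tfrc, Mki67 and Top2a, a DNA topoisomerase of dividing cells, had no UMI in any thinned barcode. A limit of 3 counts then allows a share of barcodes with a UMI, at this depth, of up to 0.703% in the diabetic and 13.0% in the control library. Without thinning, 1 control barcode held 9 UMIs of Top2a and 2 of Mki67, which its thinning to 100 of 1698 UMIs removed, and Tfrc had 1 UMI in 1 diabetic barcode. Genes of the early progenitor list were seen in 0.703% of diabetic (0.145 to 2.04) and 0% of control barcodes, against 4.56% and 5.26% of annotated cells, and without thinning they gave 8 UMIs in 7 diabetic barcodes (Cd44 4, Cd34 2, Myc 1, Sox4 1). Proliferation genes were seen in 3.28% of diabetic (1.80 to 5.44) and 8.70% of control red cell barcodes (1.07 to 28.0), against 10.6% and 10.7% of annotated cells. Unthinned, the proliferation list gave 35 UMIs in 32 diabetic barcodes, 331 CPM against 1319 CPM in annotated cells. Its most frequent genes there were H2afz, a histone variant, with 10 UMIs and Tubb5, a tubulin, with 7, and Mki67, Top2a, Cdk1 and Birc5 had none. In the control library the list gave 87 UMIs in 3 barcodes, 85 of them in 1. Some mitotic genes outside the list were high in red cell barcodes: Ube2c, an E2 enzyme of the anaphase-promoting complex, had a UMI in 32.9% of unthinned diabetic barcodes and 2726 CPM against 7.10 CPM in annotated cells (ratio 384, 300 to 497). Nusap1, a spindle-associated protein, had a UMI in 14.0% of them and 833 CPM against 2.91 CPM.

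Malat1, a long noncoding RNA kept in the nucleus, was lower than in annotated cells. It had 3019 CPM in diabetic and 10446 CPM in control red cell barcodes, against 28661 and 36343 CPM in annotated cells, ratios of 0.11 and 0.29. Their log2 values were -3.25 and -1.80, against medians of -2.29 and -1.76 over all genes with 10 UMIs expected. The diabetic value thus lay below that median, while the control value was near it. Thinned, it was seen in 19.4% of diabetic (15.8 to 23.5) and 39.1% of control red cell barcodes (19.7 to 61.5), against 82.3% and 89.2% of annotated cells. It was at 0 in 323 of 487 diabetic and 12 of 29 control barcodes before thinning, and 1 control barcode held 71 of the 94 control UMIs. Immediate early genes, which tissue digestion can induce, were lower too: 16 of 18 compared in the diabetic library were lower and 0 higher, and 15 of 15 where 10 UMIs were expected, where 86.5% of all genes were lower. The AP-1 subunits had 984 CPM against 5635 CPM, and Fos, one of them, 681 CPM against 3491 CPM. Erythroid transcription factors were scarce as RNA, with 0 UMIs of Gata1 in both libraries, 0 and 1 of Klf1, 1 and 0 of Tal1, and 1 and 3 of Nfe2 in diabetic and control red cell barcodes. Tfdp2, an E2F partner, alone gave 210 of the 230 UMIs of that list in the diabetic library.

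**Figure D3:**
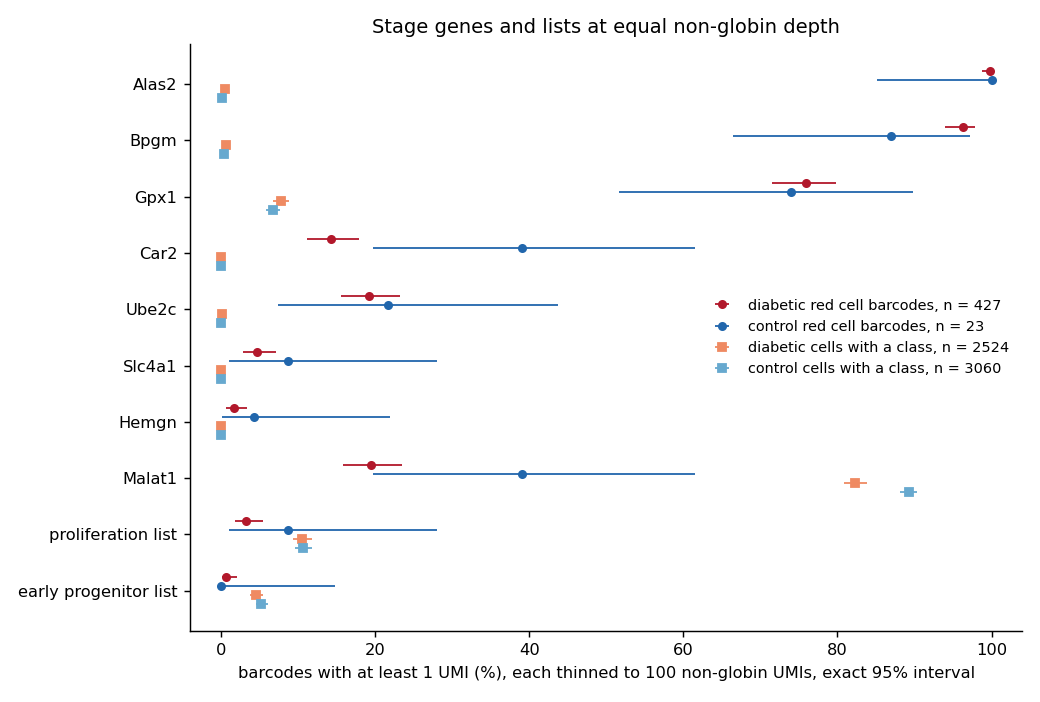
Share of barcodes with at least 1 UMI of each stage gene or list (x axis, percent, exact 95% interval), each barcode thinned to 100 non-globin UMIs, for 427 diabetic and 23 control red cell barcodes (circles) and 2524 diabetic and 3060 control annotated cells (squares). Alas2 and Bpgm lie at 87.0% to 100% in red cell barcodes, Car2 at 14.3% and 39.1%, and Malat1 is the readout where annotated cells lie far above.

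Ribosomal protein and mitochondrially encoded transcripts, which reticulocytes lose as they mature, were both present. Ribosomal protein genes had 76542 CPM in diabetic and 68785 CPM in control red cell barcodes, against 178420 and 154502 CPM in annotated cells, and 71 of 91 compared in the diabetic library were lower and 1 higher. With 10 UMIs expected 69 of 80 were lower, near the 86.5% of all genes, and under the trimmed mean 20 of 91 were lower and 6 higher. Mitochondrially encoded genes had 53129 CPM in diabetic and 18113 CPM in control red cell barcodes, against 43677 and 31338 CPM in annotated cells, and of 13 compared none was called in the diabetic library and 4 were lower in the control library. Under the trimmed mean 11 of 13 were higher in the diabetic library. A small subset set this level: 21 diabetic and 0 control red cell barcodes had over 20% of non-globin UMIs from mitochondrially encoded genes (20.5% to 78.9%), and these 21 gave 3254 of the 5614 such UMIs in the diabetic library. Each of the 21 held Alas2, with 3 to 37 UMIs, and at most 4 UMIs of Malat1. The median diabetic barcode had 2.04% and the median control barcode 1.90%. In the diabetic library the share was 22.4% over barcodes with at most 95% haemoglobin and 3.17% over those with more.

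Red cell barcodes differed among themselves along the number of non-globin UMIs. Diabetic barcodes were set in 4 bins of up to 100, over 100 to 200, over 200 to 300 and over 300 non-globin UMIs, with 63, 169, 167 and 88 barcodes. Median haemoglobin UMIs in these bins were 3385, 6839, 7947 and 8971. Car2 had 731, 655, 2882 and 6777 CPM in that order, and Prdx2 2435, 2621, 8818 and 11045 CPM. Per barcode the mean count of Car2 was 0.0476, 0.101, 0.707 and 2.67 UMIs, and the gene was at 0 in 378 of the 487. Gpx1 had 6576, 18425, 41719 and 42880 CPM, level between the last 2 bins. Over barcodes with more than 95% haemoglobin it instead rose there, from 42423 (40432 to 44486) to 50733 CPM (47924 to 53662). Mitochondrially encoded genes took 10.1% of non-globin UMIs in the last bin, against 3.96% over 95% haemoglobin, where Alas2 had 76702 CPM. Alas2 instead had 117389, 146899, 101414 and 66382 CPM, while its mean per barcode was 7.65, 22.6, 24.9 and 26.2 UMIs, so beyond 100 non-globin UMIs its count stayed nearly level as other RNA was added. Ftl1 had 75743, 42478, 33414 and 26761 CPM, and ribosomal protein genes 15.2%, 8.86%, 7.28% and 6.30% of non-globin UMIs. Amounts of RNA in the cell and capture in the droplet cannot be told apart.

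Of 3 genes set against Car2 at equal depth, Gpx1 was seen more often beside it in the diabetic library. Thinned to 100 non-globin UMIs, Gpx1 was seen in 59 of 61 diabetic barcodes with Car2 (96.7%, 88.7 to 99.6), against 265 of 366 without (72.4%, 67.5 to 76.9). In the control library it was in 9 of 9 barcodes with Car2, against 8 of 14 without, and the exact intervals overlap there. Bpgm was seen in 96.7% of diabetic barcodes with Car2 and 96.2% without. Ube2c was seen in 21.3% with Car2 (11.9 to 33.7) and 18.9% without. The values of Bpgm and of Ube2c with and without Car2 lie within counting error.

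**Figure D4:**
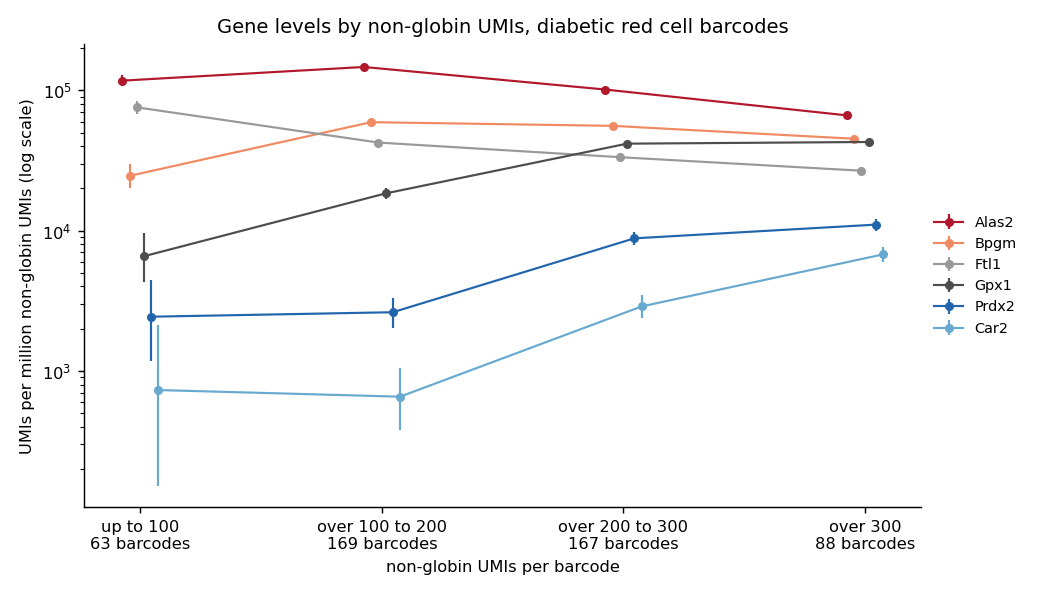
Levels of 6 genes in CPM of non-globin UMIs (log scale, exact Poisson 95% intervals) in diabetic red cell barcodes binned by non-globin UMIs. Car2 lies at 731 and 655 CPM in the lower bins and at 6777 CPM in the highest, and Prdx2 and Gpx1 are also higher there, while Alas2 and Ftl1 take a smaller share in the highest bin than in the lowest.

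Interferon-response genes were unevenly present. Isg15, a ubiquitin-like modifier that Ube2l6 conjugates, had 4940 CPM in diabetic and 10001 CPM in control red cell barcodes, and a ratio to annotated cells of 88.1 in the diabetic library. Irf7, a transcription factor of this response, had 1117 CPM (ratio 39.0), and Rsad2, the antiviral protein viperin, a ratio of 307. Ifitm3, a membrane protein of the same response, was at 880 CPM against 1245 CPM in annotated cells. Over the list 8 of 18 genes compared in the diabetic library were higher and 4 lower, beside 3.93% and 27.2% of all genes. With 10 UMIs expected 2 of 5 were higher and 2 lower, and scaled to all UMIs 5 of 18 were higher and 12 lower. Isg20, Ube2l6 and Trim10 among the 8 also stand in the lists above. Isg15 had 2923, 1735, 3371 and 9430 CPM in the 4 bins of diabetic barcodes by non-globin UMIs. The last bin was also the highest for Car2, but whether the same barcodes hold both genes was not tested.

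Between the libraries, diabetic red cell barcodes had lower CPM of Car2, Slc4a1 and Trim10 under each scaling tried, while the calls of the late erythroid list depended on the scaling. Of 324 genes compared, 40 were higher (12.3%) and 52 lower (16%) in diabetic red cell barcodes, and of 112 with at least 10 UMIs expected in the smaller set 14 were higher (12.5%) and 10 lower (8.93%). Of 21 genes of the late erythroid list 2 were higher and 2 lower, with a median log2 ratio of 0.51 against 0.02 over all genes compared, though scaled to all UMIs its median was -0.02 and under the trimmed mean 17 were higher. Of 5 membrane genes 3 were lower and 0 higher, but under edgeR's trimmed mean 0 were lower and 1 higher. The control set is small, and 8 of its 29 barcodes had over 2% markers of other cell types. By non-globin UMIs 1 of the 29 stood apart. That barcode had 7406 UMIs, 77.1% haemoglobin, 1698 non-globin UMIs and 684 genes, against a median of 156 non-globin UMIs, and held 30 of 30 control UMIs of Hmgb2, 19 of 20 of Hemgn, 54 of 135 of Car2, 12 of Birc5, 9 of Top2a, 6 of Cdk1 and 1 of Klf1. It alone gave 85 of the 87 control UMIs of the proliferation list. No doublet caller was run, and whether it is 1 cell was not tested. Ratios below are given with it and without it.

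Alas2 had 101705 CPM in diabetic and 56673 CPM in control red cell barcodes, a ratio of 1.79 (1.64 to 1.97), and 1.52 (1.38 to 1.66) without that barcode. Bpgm had 52021 and 31670 CPM, 1.64 (1.46 to 1.86), and 1.34 (1.19 to 1.52) without. Fech had 252 UMIs in diabetic and 3 in control barcodes, 7.15 (2.42 to 34.9), and 8.71 without. Of these 3 genes of haem and 2,3-bisphosphoglycerate synthesis only Fech passed the 2-fold limit, with either set. Gpx1 was at 0.900. Tpt1, translationally controlled tumour protein, was at 2.66 (1.69 to 4.45) and 2.57 without, and Fam220a at 4.68 (1.58 to 22.9) and 3.80 without. Ubb, at 1.23 with all barcodes, was 1.05 (0.945 to 1.17) without, and 0.950 over barcodes with more than 95% haemoglobin.

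Car2 had 3530 CPM in diabetic and 15002 CPM in control red cell barcodes, 0.235 (0.193 to 0.289), and 0.318 (0.250 to 0.410) without that barcode. Slc4a1 had 57 and 23 UMIs, 0.211 (0.128 to 0.359), and 0.328 (0.174 to 0.672) without. Trim10 had 568 and 2778 CPM, 0.204 (0.126 to 0.340), and 0.180 without. These 3 stayed below 1 without the single barcode, and over barcodes with more than 95% haemoglobin Car2 was at 0.312 (0.236 to 0.418) and Trim10 at 0.135 (0.0760 to 0.249). Slc4a1 was at 0.429 there, with an interval of 0.194 to 1.12 that holds 1. Malat1 was at 0.289 with the single barcode and 0.958 (0.627 to 1.53) without it, and Hemgn, an erythroid nuclear protein, at 0.0468 and 0.760 (0.110 to 32.7), so both values depended on it. Of the 319 diabetic Malat1 UMIs 61 came from 1 diabetic barcode, which was kept. Over 95% haemoglobin, Malat1 had 5611, 2640, 1867 and 1290 CPM in the 4 bins of diabetic barcodes by non-globin UMIs. Control barcodes had 12285, 6969, 6438 and 588 CPM there. Isg15 was at 0.494 and 0.468 without, and Blvrb at 0.405 and 0.379 without.

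Scaling bears on every one of these ratios. The median log2 ratio of the 324 genes was 0.02 as given, 1.49 under the trimmed mean and -0.50 when scaled to all UMIs with haemoglobin included. Under the trimmed mean Car2 was at 0.649, Slc4a1 at 0.582 and Trim10 at 0.564, each still below 1 and below that median, while Isg15 (1.36), Blvrb (1.12) and Ube2c (1.21) turned above 1. Scaled to all UMIs Alas2 was at 1.25 and Bpgm at 1.14. The number of non-globin UMIs also differs between the sets, with 88 of 487 diabetic and 12 of 29 control barcodes over 300. Within that bin and over 95% haemoglobin, 66 diabetic and 8 control barcodes had Car2 at 7741 and 17626 CPM and Alas2 at 76702 and 57873 CPM. Slc4a1 was at 1124 CPM (741 to 1635) and 1763 CPM (647 to 3837) there, the latter from 6 UMIs, so its intervals overlap. Trim10 was not set in these bins. In the 3 lower bins the control sets hold 6, 9 and 2 barcodes and no Car2 UMI, so all 135 control Car2 UMIs lie in the highest bin, against 731, 655 and 2882 CPM in diabetic barcodes. Alas2 and Bpgm did not keep 1 direction over the bins: up to 100 UMIs Alas2 had 117389 CPM in diabetic and 147420 CPM in control barcodes, and in the third bin Bpgm had 55885 CPM in diabetic and 83691 CPM in control barcodes, of which there were 2. Mitochondrially encoded genes were called higher in diabetic barcodes for 8 of 10 compared, but the 21 barcodes rich in them are all diabetic. Over barcodes with more than 95% haemoglobin these genes spread: mt-Cytb, cytochrome b, was at 4.93 (1.67 to 24.1), mt-Co1 and mt-Co3, subunits of cytochrome c oxidase, at 1.83 (1.25 to 2.79) and 1.47 (0.955 to 2.40), and mt-Nd5, a subunit of complex I, at 0.433 (0.101 to 3.91). With 1 pool a group, diabetes and any other difference between the pools cannot be told apart.

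**Figure D5:**
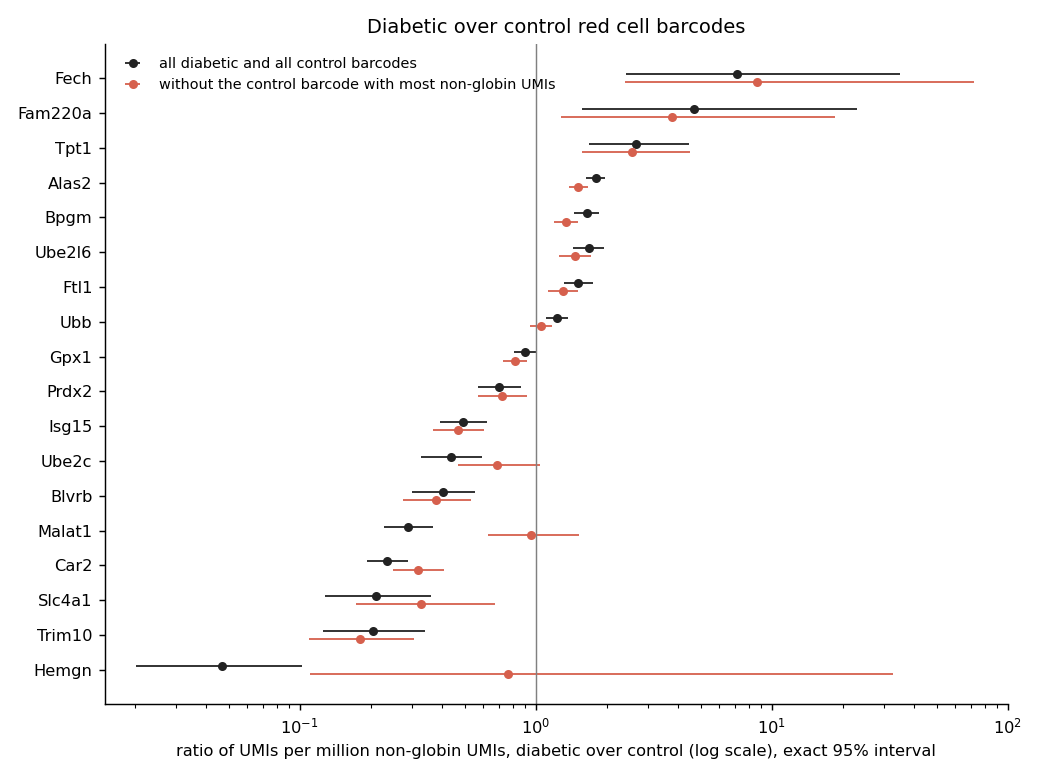
Ratio of CPM of non-globin UMIs in diabetic over control red cell barcodes (x axis, log scale, exact 95% interval) for 18 genes, with all 29 control barcodes (black) and without the control barcode with most non-globin UMIs (red). Alas2 and Bpgm stay above 1 and Car2, Slc4a1 and Trim10 below 1 in both, whereas Malat1 and Hemgn reach 1 without that barcode.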

How the data were processed

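The deposited values are raw UMI counts per gene and barcode. Cell Ranger 3.1.0, Partek and the build mm10 are named in the submitters' processing notes. How the authors filtered barcodes was not given in the sources used here. Every barcode had at least 500 UMIs, over 18155 gene rows in the diabetic and 18225 in the control matrix, and 0 columns of per-sample values were left unused. Classes are the authors' deposited labels per barcode. No doublet caller was run.

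The rule for the barcodes, the 20 gene lists and the 10 marker lists were chosen with earlier results of these data known. UMIs were summed per library and set and scaled to the non-globin total, Hbq1a and Hbq1b counted as non-globin. Levels have exact Poisson, ratios exact conditional binomial and shares exact Clopper-Pearson 95% intervals. A count of 0 was set to 3 UMIs per set. With 1 library per group no test was made: calls are ratios past 2-fold with at least 30 UMIs in both sets together, and the rule of 10 expected UMIs was chosen after seeing the data. Named genes were the globins, the 20 most abundant non-globin genes, the 20 highest over annotated cells present in at least 10% of barcodes, the 5 highest and 5 lowest between libraries, and up to 6 of each list. Others named, such as those at 0, were chosen after their values were seen. The scripts were tested on simulated data. Alternatives were other limits, scalings (edgeR 4.0.16 in R 4.3.3) and thinning depths. Python 3.11.15, numpy 2.4.6, scipy 1.17.1, pandas 2.3.3 and matplotlib 3.10.9 were used. Upstream sequences are RefSeq's (GRCm38.p6). Some genes that the rule for named genes picks are not reported here.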

Additional observations from a re-analysis of the deposited data

Results flagged for a closer look

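Annotated cells, which the comparisons above use only as a background, also held haemoglobin-rich barcodes. Haemoglobin genes exceeded 50% of the UMIs in 14 diabetic and 3 control annotated cells. Their erythroid markers summed to 10712 CPM of non-globin UMIs in the diabetic and 23388.5 CPM in the control cells, above what a count of 0 allows. The 14 diabetic cells were of classes VSMCs-2 (4), Fib-1 (4), VSMCs-1 (3), Fib-2 (2) and Fib-3 (1), with haemoglobin shares of 50.3% to 77.3% and a median of 3729 non-globin UMIs, against 208 in diabetic red cell barcodes, whose erythroid markers summed to 201092 CPM. Alas2 per 1000 haemoglobin UMIs was 3.76 in the diabetic and 3.99 in the control cells.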

How the results depend on the processing

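The count of red cell barcodes hardly moved with the haemoglobin limit: 490, 487, 485 and 479 diabetic and 29, 29, 28 and 27 control barcodes at limits of 30%, 70%, 80% and 90%. Counts of genes called did move. Genes higher in diabetic red cell barcodes than in annotated cells (449) were 39 scaled to all UMIs, 1197 under the trimmed mean, 273 with 100 UMIs in both sets, 199 past 4-fold, 268 without the top barcode of each gene and 64 with 10 UMIs expected; genes lower (3107) were 11352, 1071, 1542 past 4-fold and 1259 with 10 expected. In the control library higher (810) became 70 scaled to all UMIs, 519 under the trimmed mean, 513 over 90% haemoglobin, 485 over 95%, 513 without the 5% deepest barcodes, 202 without the top barcode and 4 with 10 expected, and lower (315) became 4291, 739, 102 past 4-fold, 194 over 95% and 113 with 10 expected. Between the libraries higher (40) became 20 scaled to all UMIs, 218 under the trimmed mean, 17 with 100 UMIs, 79 past 1.5-fold, 8 past 4-fold, 61 without the top barcode and 14 with 10 expected. Lower (52) became 103, 4, 175 with 10 UMIs in both sets, 13 with 100, 1238 with no minimum, 92 past 1.5-fold, 11 past 4-fold, 16 without the top barcode, 22 thinned and 10 with 10 expected. The fold limits and minimums act by construction, and for the others the cause was not tested.

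The share of diabetic barcodes with Alas2 (99.8%) was 98.6% unthinned, 97.7% at 50 UMIs, and 100% at 200 or 300 UMIs and at haemoglobin limits of 80% or 90%. The share with a proliferation gene (3.28%) was 6.57% unthinned, 0.853% at 50 and 9.89% at 300 UMIs. The median log2 ratio of the late erythroid list to annotated cells (5.61) was 9.55 with 10 UMIs expected, and that of the proliferation list turned to -2.55 from the 1.15 that genes with no UMI in red cell barcodes had set through the floor of 3. Between the libraries Bola3 turned to a log2 ratio of -0.31 thinned and Tuba1c to 0.031 without its top barcode. The other 115 values of the comparisons' lead results stayed within their limits. The lists of organelle clearance and ubiquitin genes lie below annotated cells in median scaled to all UMIs, at -4.96 and -3.24, and above under the trimmed mean, at 1.44 and 3.16. Depth limits the control set most: 8999 non-globin UMIs over 29 barcodes. No paired analysis was possible because each group is 1 library, and for the same reason no replicate could be left out.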
